A study of Drosophila melanogaster with 8 samples.

Results

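The 9 genes described here encode heat shock proteins, the constitutive members of the same families and the factor that switches them on: Hsf, Hsc70-4, Hsp83, DnaJ-1, Hsp68, Hsp22, Hsp23, Hsp26 and Hsp27. They were found by their FlyBase symbols among the 13776 genes of the deposited tables, where all 9 were present and all 9 had enough reads to be tested. They were measured by RNA-seq of poly(A)+ RNA from about 100 whole ovaries per library, dissected from Drosophila melanogaster females 0 to 4 days old. Flies with tj-Gal4 were crossed to the VDRC line #60000 for the 2 control libraries and to an HP1a RNAi line for the 2 knockdown libraries. Both groups carry tj-Gal4, a driver active in somatic cells of the ovary, so the RNA of the germline, where no knockdown is driven, is mixed with that of the soma. Since the crosses used different lines, the knockdown and the line background cannot be told apart. The remaining 4 samples of the series are DamID profiles of HP1 and are not used here.

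Heat shock proteins are chaperones, which bind unfolded or aggregating proteins and help them fold, assemble or be degraded. Heat shock factor, the product of Hsf, forms trimers under stress and binds heat shock elements upstream of the inducible genes. Some of these genes are also active without stress: in the fly ovary, nurse cells make Hsp26, Hsp27 and Hsp83 transcripts during normal oogenesis and pass them to the oocyte, and Hsf itself is needed for oogenesis. HP1a is best known as a protein of heterochromatin, and in larval polytene chromosomes it is also found at heat shock puffs. The comparison of the groups asks how these genes are expressed in an ovary whose somatic cells are targeted by HP1a RNA interference.

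In the knockdown libraries Hsf was 1.85-fold higher and the Hsp40 gene DnaJ-1 1.38-fold higher, whereas Hsc70-4, the abundant constitutive Hsp70 gene, was 1.68-fold lower. These 3 genes passed the test (edgeR quasi-likelihood test over all genes, adjusted p under 0.05). The small heat shock genes Hsp22, Hsp23, Hsp26 and Hsp27 had higher values in both knockdown libraries than in either control but did not pass, and for Hsp22 and Hsp26 the controls differed from each other about as much as the groups did, for Hsp27 more. Hsp83, the Hsp90 gene, was lower in both knockdown libraries without passing, and Hsp68 showed no separation. Of the 9 genes, 2 were higher (22.2%) and 1 lower (11.1%), where 11.8% and 16.1% of all 8798 tested genes were, so the share of the 9 that was called, 33.3%, was near the 27.9% of all genes. With DESeq2, 5 of the 9 genes were higher, Hsp22, Hsp23 and Hsp26 among them, and 2 lower, beside 19.0% and 18.4% of all genes. With library size alone as the scale 5 were higher and 0 lower, beside 29.3% and 11.8%, with limma-trend on log2(TPM + 1) 6 and 0, beside 50.1% and 7.55%, and scaled to germline markers 5 and 1, beside 20.9% and 14.1%. The groups did not overlap for 8 of the 9 genes, against 77.0% of all genes, with 6 higher (39.3% of all genes) and 2 lower (37.7%). Their median log2 fold change was 0.69, and that of all tested genes 0.02. Under the other scales of the counts the median of the 9 lay at 0.68 to 0.92. The 0.92 was with library size alone, where the median of all genes was 0.25. With limma-trend on log2(TPM + 1) the 9 had 1.34, beside 0.50 for all genes. Without control 1 they had 0.60 and without control 2 1.17, beside 0.02 and 0.08.

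Deposited counts summed to 18671653 to 38330979 per library. Across genes, log2 CPM (counts per 1000000, scaled by the trimmed mean of M values) correlated at r = 0.959 between the controls and 0.985 between the knockdown libraries. The targeted gene, that of HP1a, had 253 and 229 CPM in the controls against 224 and 236 CPM after knockdown (log2 fold change -0.06, SE 0.11, adjusted p = 0.677 by edgeR), so the libraries are called knockdown after their labels. Germline markers were present in all libraries, their sum being 6420 and 6464 CPM for the controls and 5770 and 6130 CPM for the knockdown libraries, and 13 of 14 were found in the tables. Of these 13, 4 were higher (30.8%, beside 11.8% of all genes) and 1 lower (7.69%, beside 16.1%), with log2 fold changes from -1.13 to 1.77. The same markers set the germline scale used above. Follicle cell markers were present too but lower in the knockdown libraries: 11 of 12 tested fell (91.7%, beside 16.1% of all genes). Their sum went from 1091 and 769 CPM to 210.4 and 236 CPM. Late eggshell markers, which mark the oldest egg chambers, differed within groups: control 1 held 222 CPM and control 2 12343 CPM, knockdown 1 575 CPM and knockdown 2 5269 CPM. None of the 9 was called. In whole-ovary RNA, fewer cells of a type and less RNA per cell cannot be told apart. Vitelline membrane markers had 10924 and 25458 CPM in the controls, against 783 and 4143 CPM with the knockdown. All 8 had negative log2 fold changes, but only 1 was called lower (12.5%, beside 16.1% of all genes). Muscle sheath markers summed to 2219 and 1009 CPM and then to 926 and 797 CPM, and 2 of 7 fell (28.6%, beside 16.1% of all genes). Hemocyte markers summed to 194 and 247 CPM and then to 373 and 356 CPM, with He at 0 in all libraries. Of the 6 hemocyte markers tested 2 rose (33.3%, beside 11.8% of all genes). Fat body markers held 20.8 CPM or less. The part of these shifts in the results below was not tested.

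Levels were compared between genes in deposited TPM, which is adjusted for transcript length. In the controls the order was Hsc70-4 (3514 TPM, SD 346), Hsp83 (2205 TPM, SD 258), Hsp27 (757 TPM, SD 437), Hsp26 (654 TPM, SD 287), DnaJ-1 (101 TPM, SD 0.542), Hsf (37.1 TPM, SD 8.4), Hsp22 (16.8 TPM, SD 8.65), Hsp23 (6.0 TPM, SD 3.2) and Hsp68 (3.3 TPM, SD 3.07), each over 2 libraries. Neighbours in this order overlapped between libraries for 2 pairs, Hsp27 with Hsp26 and Hsp23 with Hsp68. The constitutive chaperones thus stood far above the strongly inducible ones, and among small heat shock genes Hsp26 and Hsp27 stood far above Hsp22 and Hsp23. Hsc70-4 ranked 70 and 71 among all genes by TPM in control 1 and control 2, and Hsp83 ranked 93 and 99.

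In the knockdown libraries Hsc70-4 (3017 TPM, SD 274) and Hsp83 (2260 TPM, SD 159) again led. Hsp26 (1882 TPM, SD 102) and Hsp27 (1749 TPM, SD 80.0) followed closely. The order ended with DnaJ-1 (202 TPM, SD 18.6), Hsf (99.0 TPM, SD 5.3), Hsp22 (49.9 TPM, SD 2.13), Hsp23 (30.7 TPM, SD 13.2) and Hsp68 (4.18 TPM, SD 1.44). No neighbours in it overlapped, but Hsp26 and Hsp27 were nearly equal in knockdown 2 (1810 and 1806 TPM), so their order is uncertain. The 4 small heat shock genes together held 917 TPM in control 1, 1949 TPM in control 2, 3737 TPM in knockdown 1 and 3685 TPM in knockdown 2. By raw counts they took 0.0758% and 0.159% of the control reads and 0.246% and 0.244% of the knockdown reads, while for Hsc70-4 and Hsp83 together these shares were 1.37% and 1.14%, and 0.962% and 0.937%. Neither TPM, of single genes or summed, nor these shares of unscaled counts are compared between the groups. On the log2(TPM + 1) scale the median tested gene was 0.50 higher in the knockdown libraries, and with library size alone 0.25 higher. Changes are therefore given below in scaled CPM.

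**Figure D1:**
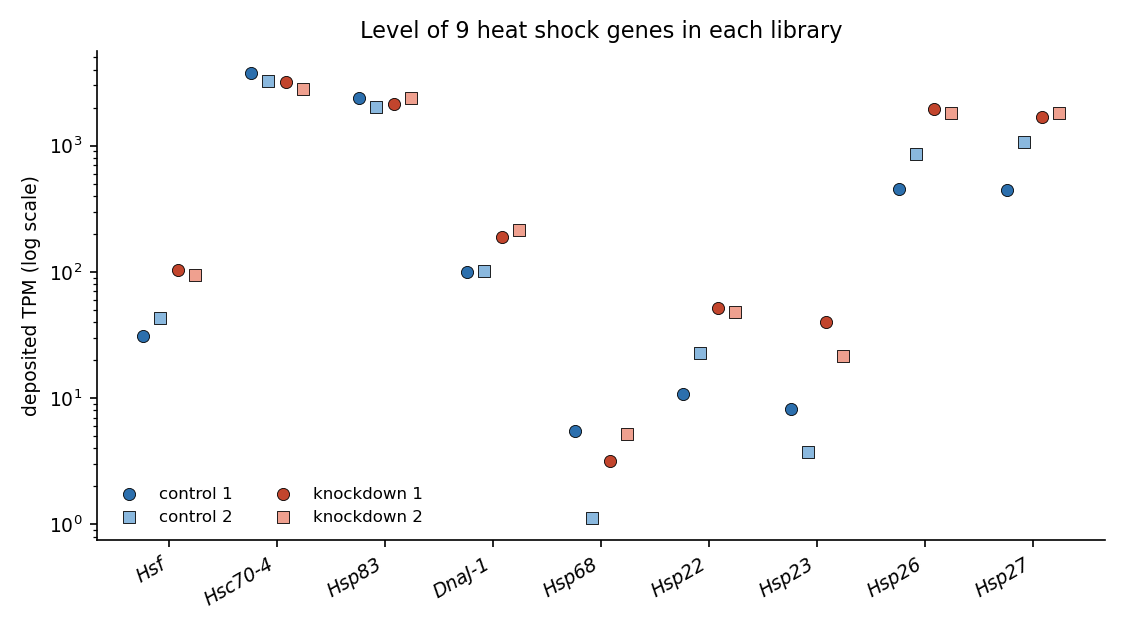
Deposited TPM (log scale) of the 9 genes in each library, in the order factor, constitutive chaperones, co-chaperone, inducible Hsp68 and small heat shock genes; each point is 1 library (blue, control; red, knockdown; circle, replicate 1; square, replicate 2). Hsc70-4 and Hsp83 lie at the top in every library, whereas Hsp26 and Hsp27 differ between the controls (451 and 857 TPM, and 447 and 1066 TPM). TPM is not compared between the groups, since the median gene is shifted.

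Hsf, the transcription factor of the heat shock response, had 85.2 CPM in control 1, 116 CPM in control 2, 189 CPM in knockdown 1 and 184 CPM in knockdown 2. Both knockdown libraries lay well above both controls, and the knockdown pair differed by 1.03-fold where the controls differed by 1.36-fold. This gave a log2 fold change of 0.89 (SE 0.17, adjusted p = 0.0289 by edgeR). The rise was called with 12 of 15 alternatives, and its log2 fold change lay between 0.69 and 1.43 in all of them. It was not called without knockdown 1 (0.89, adjusted p = 0.109) or without knockdown 2 (0.92, adjusted p = 0.0979), where the spread comes from the controls alone, as it does for every gene below, nor with the deposited effective lengths as an offset (0.86, adjusted p = 0.107).

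DnaJ-1 encodes an Hsp40, a J-domain protein that delivers substrates to Hsp70 and stimulates its ATPase. The controls held 181 and 177 CPM and the knockdown libraries 227 and 268 CPM. Control values nearly coincided, and the knockdown libraries lay apart from each other by about as much as knockdown 1 lay from the controls. A log2 fold change of 0.47 (SE 0.13, adjusted p = 0.0474 by edgeR) was close to the threshold. The call was not made without knockdown 1 (0.60, adjusted p = 0.165), without knockdown 2 (0.36, adjusted p = 0.349), without the filter on low counts (0.51, adjusted p = 0.0557) or with the deposited effective lengths (0.41, adjusted p = 0.0688).

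Hsc70-4 encodes the main cytosolic Hsp70 of unstressed cells, which also takes part in uncoating clathrin-coated vesicles. Control 1 and control 2 held 8525 and 7171 CPM of it, knockdown 1 and knockdown 2 only 4889 and 4456 CPM. Both knockdown libraries were below both controls, and libraries of a group differed by at most 1.19-fold. On the log2 scale the change was -0.75 (SE 0.18, adjusted p = 0.0399 by edgeR). Its sign was negative in all 15 alternatives, but the fall was not called without knockdown 1 (-0.80, adjusted p = 0.256) or without knockdown 2 (-0.67, adjusted p = 0.317), with library size alone as the scale (-0.51, adjusted p = 0.0654; median of all genes 0.25) or with limma-trend on log2(TPM + 1) (-0.22, adjusted p = 0.320; median of all genes 0.50).

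Hsp83 encodes the cytosolic Hsp90, a chaperone of signalling proteins and steroid receptors that also acts in the loading of small RNAs. It had 6309 and 5188 CPM in the controls, against 3804 and 4356 CPM with the knockdown. The groups did not overlap, but control 2 and knockdown 2 differed by less than the controls did from each other. At a log2 fold change of -0.49 (SE 0.19), Hsp83 did not pass (adjusted p = 0.0955 by edgeR). It passed with DESeq2 (-0.47, adjusted p = 0.0221) and without control 2 (-0.59, adjusted p = 0.0113), where the spread comes from the knockdown pair alone. With limma-trend on log2(TPM + 1) the value was 0.04 (adjusted p = 0.845), below the median of all genes on that scale.

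Hsp68 encodes a strongly inducible protein of the Hsp70 family. It was low everywhere, with 11.6 CPM in control 1, 2.33 CPM in control 2, 4.5 CPM in knockdown 1 and 7.68 CPM in knockdown 2, from 47 to 313 counts. The highest and the lowest value were both in controls, so the groups overlapped. Its log2 difference was -0.19 (SE 0.76, adjusted p = 0.863 by edgeR), and without control 1 it was 1.39 (adjusted p = 0.0988), without control 2 -0.88 (adjusted p = 0.130), without knockdown 1 0.16 (adjusted p = 0.914) and without knockdown 2 -0.61 (adjusted p = 0.679). A direction cannot be given for this gene.

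The small heat shock proteins hold unfolding proteins without using ATP. Hsp26 had 343 CPM in control 1, 632 CPM in control 2, 995 CPM in knockdown 1 and 956 CPM in knockdown 2. The knockdown libraries were nearly equal and above both controls, which differed from each other by 1.84-fold. A log2 fold change of 1.00 (SE 0.30) did not pass (adjusted p = 0.0603 by edgeR). The change passed with DESeq2 (1.02, adjusted p = 0.00155), with library size alone (1.24, adjusted p = 0.0290) and scaled to germline markers (1.12, adjusted p = 0.0365). The change did not pass without the filter on low counts (1.04, adjusted p = 0.0557) or with the deposited effective lengths (0.98, adjusted p = 0.0674). It was 0.63 without control 1 (adjusted p = 0.0205) and 1.55 without control 2 (adjusted p = 0.00271), so the size depends on which control is used. With a control left out, here and for the genes below, the spread comes from the knockdown pair alone, which for Hsp26 differed by 1.04-fold, and these p-values leave out the difference between the controls.

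For Hsp27 the controls gave 466 and 1078 CPM and the knockdown libraries 1182 and 1307 CPM. Here control 2 lay close to knockdown 1, and the gap between the controls, 2.31-fold, exceeded that between the groups. Its log2 fold change came to 0.69 (SE 0.40, adjusted p = 0.223 by edgeR), with 0.21 without control 1 (adjusted p = 0.196) and 1.46 without control 2 (adjusted p = 0.00271). Control 1 alone stood well below the other 3 libraries.

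Hsp22, whose product resides in mitochondria, had 8.52 and 17.5 CPM in the controls, below the 26.6 and 26.2 CPM of both knockdown libraries. Its log2 fold change came to 1.02 (SE 0.35, adjusted p = 0.0769 by edgeR), with 0.60 without control 1 (adjusted p = 0.0379) and 1.68 without control 2 (adjusted p = 0.00386), where the spread comes from a knockdown pair that differed by 1.02-fold. With all libraries the change passed with DESeq2 (1.04, adjusted p = 0.0167), library size alone (1.26, adjusted p = 0.0394) and scaled to germline markers (1.14, adjusted p = 0.0497). Without the filter on low counts it did not (1.06, adjusted p = 0.0724), nor with the deposited effective lengths (1.01, adjusted p = 0.0858). The pattern over the libraries was close to that of Hsp26: after centring each gene on its mean, the log2 CPM of the pair differed by a root mean square of 0.06 over the 4 libraries, the smallest of 36 pairs among the 9 genes. Counts of Hsp22 and of the neighbouring CG4456 (Hsp67Bb) were fractional but summed to a whole number within 0.01 in each library, 184, 362, 563 and 1092, so reads were divided between these genes. CG4456 received 9.82 to 23.9 counts, so the division moves Hsp22 little.

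Hsp23 behaved differently from the other small heat shock genes in the controls. It had 5.58 CPM in control 1, 2.33 CPM in control 2, 17.9 CPM in knockdown 1 and 9.87 CPM in knockdown 2, so that control 1 was above control 2, the reverse of the other 3. Both knockdown libraries lay above both controls. The log2 fold change of 1.81 was the largest in size of the 9 genes, but its SE of 0.53 was wide and it did not pass (adjusted p = 0.0564 by edgeR). The change passed with DESeq2 (1.83, adjusted p = 0.00181), library size alone (2.05, adjusted p = 0.0342) and without the filter on low counts (1.85, adjusted p = 0.0474). The change did not pass with effective lengths implied by counts and TPM (1.80, adjusted p = 0.0537). Without control 1 it was 2.57 (adjusted p = 0.0290), and without knockdown 1 1.34 (adjusted p = 0.230). Its counts, from 47 to 402, were few beside those of Hsp26, which had 6515 to 38951.

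**Figure D2:**
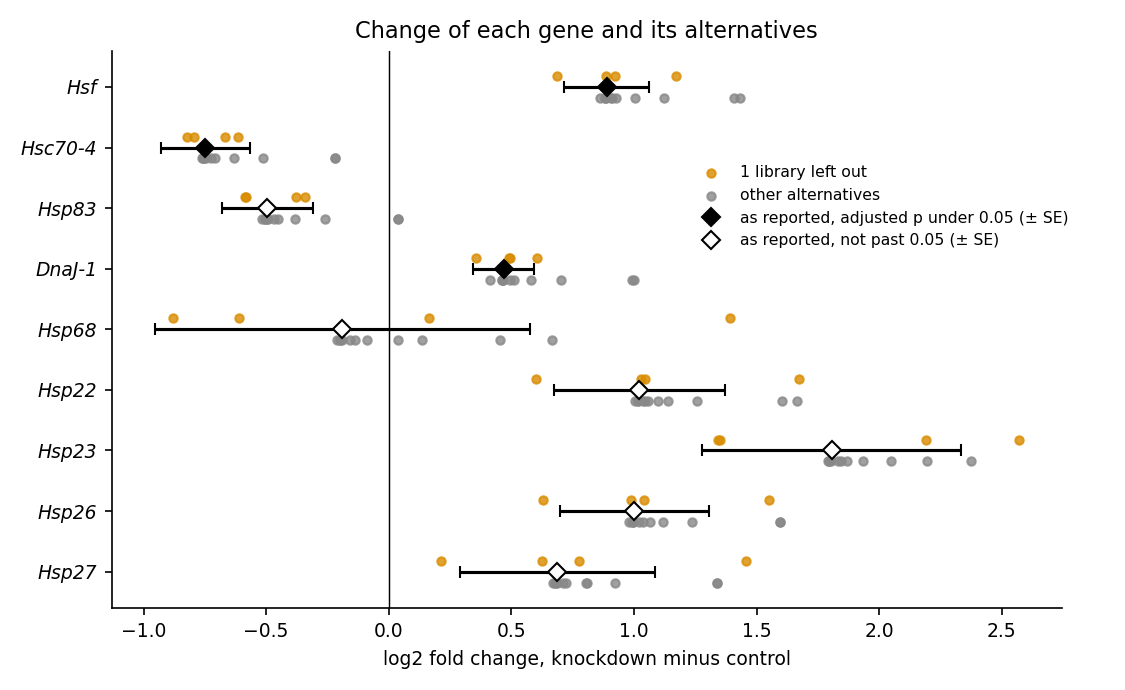
Log2 fold change (knockdown minus control) of each gene: diamonds give the reported value with its SE (filled where the adjusted p was under 0.05), orange points the values with 1 library left out and grey points the other alternatives. Hsf, DnaJ-1 and the 4 small heat shock genes are positive in every alternative and Hsc70-4 is negative in every one, while Hsp68 falls on both sides of 0 and Hsp83 reaches 0.04 with limma on TPM.

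Hsp22, Hsp23, Hsp26 and Hsp27 lie in 1 cluster on arm 3L, and the order of its genes (Release 6 gene table) was used to place their values beside those of their neighbours, which were chosen without a rule fixed beforehand. From left to right the cluster holds Hsp67Bc, CG4456, Hsp22, CG4461, Hsp26, Hsp67Ba, Hsp23 and Hsp27. CG4461, next to the highly expressed Hsp26, had 0 counts in 3 libraries and 3 in knockdown 2. Hsp67Bc, at the left end, had 3 to 29 counts. Hsp67Ba, between Hsp26 and Hsp23, went against its neighbours, at 19.1 and 9.33 CPM in the controls and only 3.49 and 5.28 CPM with the knockdown (log2 fold change -1.69, SE 0.44, adjusted p = 0.0458 by edgeR). That fall was not called without control 1 (-1.08, adjusted p = 0.0916), without knockdown 1 (-1.41, adjusted p = 0.162) or without knockdown 2 (-2.01, adjusted p = 0.0976). The genes flanking the cluster, Fdx1 (-0.51, adjusted p = 0.0625) and CG4452 (0.26, adjusted p = 0.275) on the left and CG4080 (0.21, adjusted p = 0.264) on the right, did not pass.

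**Figure D3:**
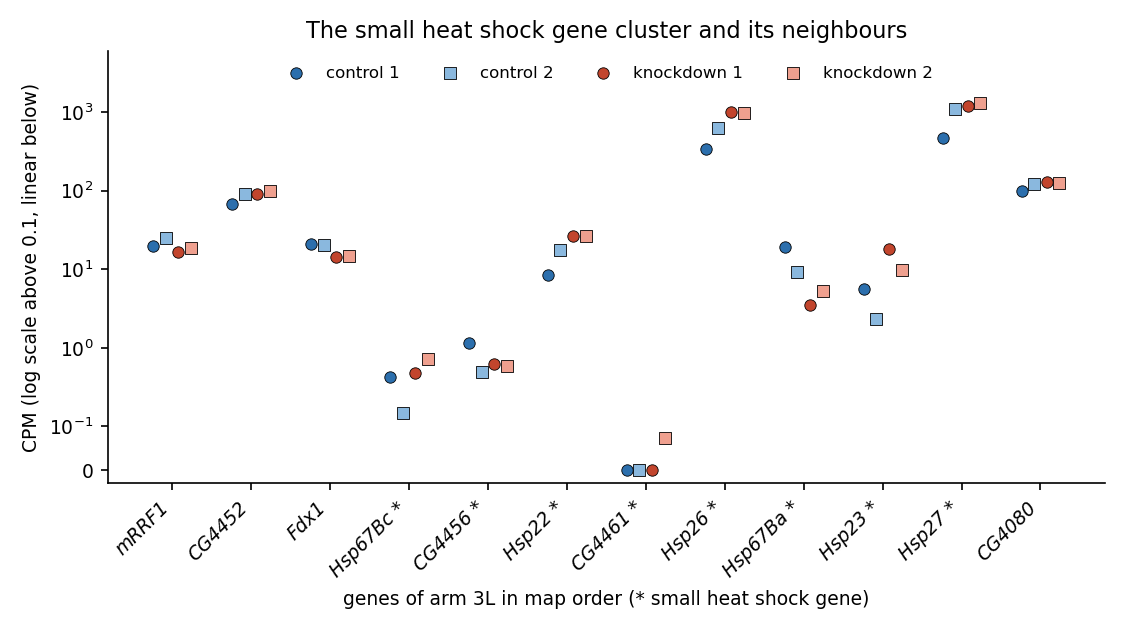
Scaled CPM (log scale above 0.1, linear below) of the genes of the small heat shock cluster and its neighbours on arm 3L, in map order and not to scale of distance. Asterisks mark the heat shock genes of the cluster, CG4456 (Hsp67Bb) included, and each point is 1 library. Hsp26 and Hsp27 lie far above CG4461 and Hsp67Bc in all libraries, and Hsp67Ba is lower in both knockdown libraries while its neighbours Hsp26 and Hsp23 are higher.

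The 6 inducible Hsp70 copies, classic targets of heat shock factor, are nearly identical, so reads were shared and single copies are uncertain: Hsp70Ab received 83.4% to 91.2% of their counts and Hsp70Ba 0. None of the 5 copies tested passed with edgeR (27.9% of all genes did). Of these, Hsp70Bbb had the smallest adjusted p (log2 fold change -3.04, SE 0.87, adjusted p = 0.0539 by edgeR), followed by Hsp70Bc (-1.56, adjusted p = 0.207), Hsp70Aa (1.39, adjusted p = 0.548), Hsp70Bb (0.47, adjusted p = 0.741) and Hsp70Ab (-0.07, adjusted p = 0.911). Hsp70Bbb was called lower with DESeq2 (-3.04, adjusted p = 0.000267), with library size alone (-2.83, adjusted p = 0.0470), scaled to germline markers (-2.96, adjusted p = 0.0414), with limma-trend on log2(TPM + 1) (-1.93, adjusted p = 0.0160) and without knockdown 2 (-5.28, adjusted p = 0.00543). Their sum was 278 CPM in control 1, 157 CPM in control 2, 112 CPM in knockdown 1 and 286 CPM in knockdown 2, so that, as for Hsp68, the libraries of a group differed more than the groups did. In both, control 1 and knockdown 2 held the higher values.

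Across the rest of the chaperone system, 69 of 84 listed genes could be tested, of which 3 were higher (4.35%) and 13 lower (18.8%), beside 11.8% and 16.1% of all genes. Their median log2 fold change was -0.20. More of these genes were called without control 2 and fewer without either knockdown library, where a group holds a single library. With library size alone as the scale they were 11 higher and 7 lower, scaled to germline markers 7 and 8, with DESeq2 8 and 19, and with limma-trend on log2(TPM + 1), where the median gene is shifted by 0.50, 28 and 4. Of all genes, library size alone called 29.3% higher and 11.8% lower, and the germline scale 20.9% and 14.1%. DESeq2 called 19% and 18.4% of them, and limma-trend 50.1% and 7.55%. Calls among all genes also rose without control 2 and fell without either knockdown library. The balance of higher and lower genes therefore depends on the scale, among all genes as well as among chaperones.

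Among partners of Hsp70, Hsc70-2, a cognate gene of the Hsp70 family, fell 9.01-fold, from 17.8 and 9.13 CPM to 1.6 and 1.4 CPM (log2 fold change -3.17, SE 0.43, adjusted p = 0.0219 by edgeR). It was the only 1 of 8 tested cognates and exchange factors to pass (12.5% lower, beside 16.1% of all genes), and it passed in all 15 alternatives. The mitochondrial cognate Hsc70-5 (-0.73, adjusted p = 0.0542) and Hsp110 (-0.53, adjusted p = 0.0601), which exchanges the nucleotide of Hsp70, did not pass. Of 13 other J-domain genes, 2 rose (15.4%, beside 11.8% of all genes) and 1 fell (7.69%, beside 16.1%). The mitochondrial J-domain gene CG5504, l(2)tid, fell from 186 and 174 CPM to 73.7 and 79.2 CPM (log2 fold change -1.23, SE 0.11, adjusted p = 0.0217), while mrj (0.64, SE 0.12, adjusted p = 0.0267) and wus (0.88, SE 0.21, adjusted p = 0.0394) rose. CG5504 was not called without knockdown 1 (-1.16, adjusted p = 0.0553), and mrj and wus were called neither without knockdown 1 (adjusted p = 0.156 and 0.128) nor without knockdown 2 (adjusted p = 0.149 and 0.126). Without control 1 the rise of wus was 0.63.

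Of 12 genes listed as Hsp90 relatives and co-chaperones, 4 fell (33.3%, beside 16.1% of all genes) and 0 rose (beside 11.8%). The median of the 12 was -0.26, and 0.27 with limma-trend on log2(TPM + 1), again under the median of all genes there (0.50). The 4 that fell were the immunophilin genes Fkbp39 (-1.05, SE 0.19, adjusted p = 0.0253 by edgeR) and Fkbp59 (-0.60), the mitochondrial Hsp90 gene Trap1 (-0.90, SE 0.17, adjusted p = 0.0273) and Sgt (-0.58, SE 0.15, adjusted p = 0.0473). Fkbp39 went from 1193 and 895 CPM to 488 and 520.2 CPM. Stip1, which joins Hsp70 to Hsp90, had 422 and 377 CPM without and 365 and 399 CPM with the knockdown (-0.07, adjusted p = 0.717). Fkbp59 and Sgt were not called with library size alone (-0.36, adjusted p = 0.117, and -0.34, adjusted p = 0.125) or scaled to germline markers (adjusted p = 0.0637 and 0.0670), and the median was -0.03 with library size alone and -0.12 without control 1. None of the 4 falls was called without knockdown 1 or without knockdown 2 (adjusted p of 0.105 to 0.269).

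The cytosolic CCT chaperonin folds actin and tubulin, which prefoldin brings to it. Of their 13 tested subunit genes 12 had negative values, with a median of -0.34. Called lower were 3 (23.1%, beside 16.1% of all genes): Pfdn2 (-0.48, SE 0.11, adjusted p = 0.0348 by edgeR), CCT1 (-0.66, SE 0.17, adjusted p = 0.0441) and CCT5 (-0.70, SE 0.18, adjusted p = 0.0461). These 3 did not pass with library size alone (adjusted p of 0.0792 to 0.130) or without either knockdown library (adjusted p of 0.159 to 0.307), and CCT5 also not without control 1 (-0.51, adjusted p = 0.0511). With limma-trend on log2(TPM + 1) the median of this group was 0.19 and Pfdn2 stood at 0.05, both under the median of all genes on that scale, 0.50. The mitochondrial chaperonin gene Hsp60A fell from 1753 and 1294 CPM to 811 and 834 CPM (-0.89, SE 0.19, adjusted p = 0.0330), though not past the threshold without knockdown 1 (-0.85, adjusted p = 0.183) or knockdown 2 (-0.90, adjusted p = 0.161); its partner CG11267, the Hsp10 gene, did not pass (-0.48, adjusted p = 0.0530), nor did the testis-biased Hsp60B (-1.48, adjusted p = 0.243).

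In the endoplasmic reticulum, 2 of 10 tested genes fell (20%, beside 16.1% of all genes) and 0 rose (beside 11.8%). The calreticulin gene Calr (-0.57, SE 0.15, adjusted p = 0.0468 by edgeR) and crc (-0.59, SE 0.14, adjusted p = 0.0390), which encodes the fly ATF4, fell, whereas the kinase gene PEK, which acts upstream of it, had a positive value that did not pass (0.54, adjusted p = 0.0523). Neither fall was called without a knockdown library (adjusted p of 0.167 to 0.314) or with library size alone (adjusted p = 0.128 for Calr and 0.105 for crc). With library size alone PEK (0.77, adjusted p = 0.0196), Ire1 (0.96, adjusted p = 0.0235), Ero1L (0.86, adjusted p = 0.0260) and Atf6 (0.56, adjusted p = 0.0291) were called higher, the first 3 also with DESeq2 (adjusted p of 0.0123, 0.00857 and 0.0239). With library size alone 29.3% of all genes were called higher. The genes of this group named above kept their sign there. However, the median of all genes moved only from 0.02 to 0.25, less than the size of each of their values. Their signs could therefore hardly have changed, and this carries no evidence on direction. Of the 10 tested genes, 6 had negative values with the reported scale, 4 with library size alone and 2 with limma-trend on log2(TPM + 1). Among the other small heat shock genes CG14207 rose from 59.4 and 54.0 CPM to 92.7 and 84.9 CPM (0.65, SE 0.12, adjusted p = 0.0279), but was not called without knockdown 1 (adjusted p = 0.186) or knockdown 2 (adjusted p = 0.113), while Hsp67Bc did not pass (1.09, adjusted p = 0.266).

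**Figure D4:**
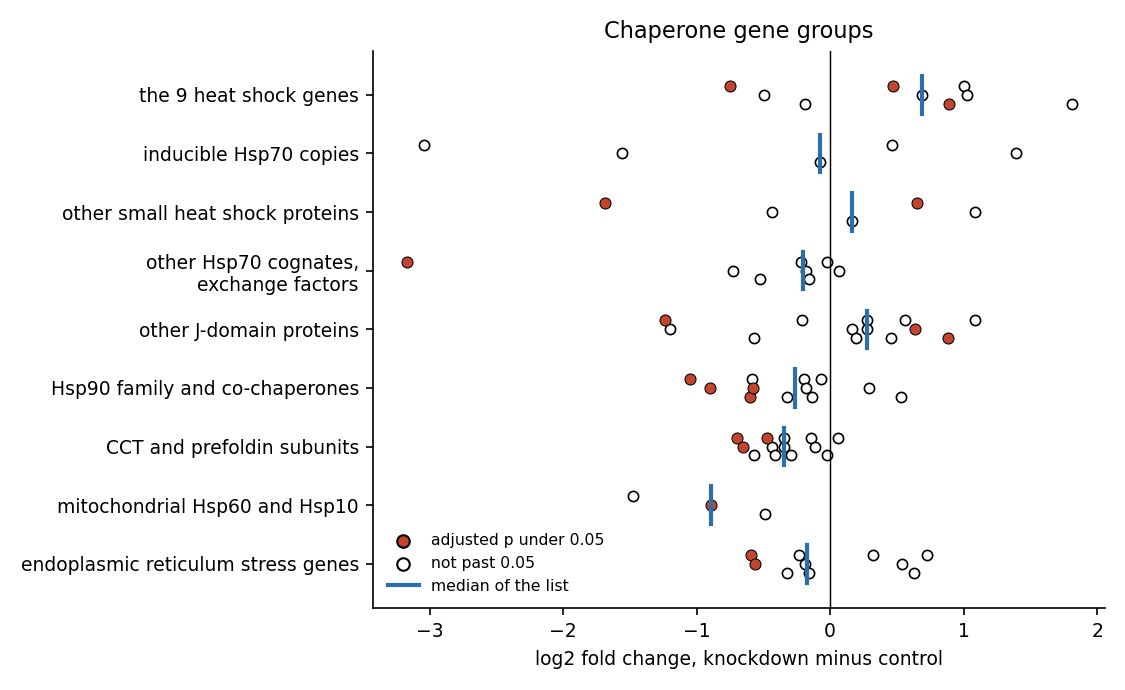
Log2 fold change (knockdown minus control) of each tested gene of the 9 heat shock genes and of 8 other chaperone groups; each point is 1 gene, filled where its adjusted p was under 0.05, and the blue bar is the median of the group. The median of the 9 genes lies at 0.69, while those of the Hsp90, CCT and Hsp60 groups are negative (0.27 and 0.19 for the Hsp90 and CCT groups with limma on TPM, beside 0.50 for all genes).

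For the 3 genes that passed, the genes with the most similar pattern over the 4 libraries were sought among 6559 others with at least 10 CPM on average. For Hsf they were CG42354 (root mean square difference 0.01 on the log2 scale) and CG11367 (0.01). For Hsc70-4 they were eIF2A (0.01) and Coop (0.02), and for DnaJ-1 Nrx-IV (0.03) and PTP-ER (0.05). With 4 libraries and so many candidates, close matches are easily found and carry no test.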

How the data were processed

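Poly(A)+ RNA was read from 1 end over 50 nt, per the labels. Salmon, HISAT2, DESeq2 and HTSeq and the builds dm3 and BDGP5 are named in the submitters' processing notes, without versions or roles. The deposited tables hold expected counts and TPM per gene, per the file headers. The deposited effective lengths matched counts and TPM within 1% for only 40.8% to 41.3% of genes over 50 counts and were otherwise too short, so they entered an alternative only. Symbols were found for 13484 of 13776 identifiers, with some list names matched as RefSeq synonyms.

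Expected counts were rounded and analysed in R 4.3.3 with edgeR 4.0.16: filterByExpr (8798 genes), TMM scaling, quasi-likelihood F test without a block, and Benjamini-Hochberg adjustment over all tested genes at 0.05, with 2 residual degrees of freedom. Each SE was derived from the fold change and its F statistic, as the size of the former over the root of the latter. The labels call the replicates biological but name no separate crosses, so p-values may measure technical spread. With 2 libraries against 2, an exact permutation test cannot go below p = 0.333. Limma 3.58.1 and DESeq2 1.42.0 served as alternatives. The genes and lists were chosen with earlier results of these data known. Named are the 9 genes, the inducible Hsp70 copies, up to 3 genes of each chaperone list with the smallest adjusted p, the target gene and the 2 genes nearest in pattern to each gene that passed; Stip1, Fkbp59, Ire1, Ero1L, Atf6, CG4456, CG4461 and the genes flanking the cluster were added after their values were seen. The HP1 domain list was not used, since genes were not placed on dm3.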

Additional observations from a re-analysis of the deposited data

How the results depend on the processing

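The counts of calls moved widely. Of the 9 heat shock genes, those higher and lower numbered 5 and 0 with library size alone, 5 and 2 with DESeq2, 6 and 0 with limma-trend on log2(TPM + 1) and on log2(TPM + 0.1), 1 higher with the deposited effective lengths, and 5 higher when scaled to germline markers, a scale chosen after seeing the data; leaving out 1 library gave 0 to 5 higher and 0 to 2 lower. Of the other chaperone genes, 11 and 7 were higher and lower with library size alone, 28 and 4 with log2(TPM + 1), 27 and 4 with log2(TPM + 0.1), and 7 and 8 when scaled to germline markers; 8 were higher and 19 lower with DESeq2, 5 were higher with the deposited lengths, and 7 lower without the filter on low counts; leaving out 1 library gave 0 to 12 higher and 1 to 24 lower. Of all genes, 2576 were higher with library size alone, 1688 with DESeq2, 4406 and 4377 with limma-trend at the pseudocounts of 1 and 0.1, and 1835 when scaled to germline markers; 664 and 669 were lower with limma-trend; leaving out 1 library gave 29 to 2540 higher and 191 to 2003 lower. Effective lengths implied by counts and TPM, also added after seeing the data, gave 2 and 1 of the 9. Of all 8798 genes tested there, 1005 were higher and 1406 lower. With the deposited effective lengths 918 of these 8798 genes were higher and 1314 lower. The replicate number as a block, given next, called 1879 of them lower. With 1 library left out the number of genes tested differed, from 9049 to 9227, so those counts are not directly comparable. The replicate number as a block gave 6 of the 9 genes higher, 8 other chaperone genes higher and 19 lower, and 1834 of all genes higher; deviations of control 1 and knockdown 1 from their group means correlated at r = 0.503 across genes, but with 2 pairs and no label of a shared cross the libraries share only a number.

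Over the 9 genes and the target, 94 of the values under 15 alternatives each kept direction and side of the threshold, 31 newly passed, 12 no longer passed and 13 changed sign. Sign changes were those of Hsp68 with library size alone (0.039), log2(TPM + 1) (0.45), log2(TPM + 0.1) (0.67), the replicate block (0.14), without control 1 (1.39) and without knockdown 1 (0.16; range -0.88 to 1.39 with 1 library left out), of Hsp83 with both TPM settings (0.039 and 0.039), and of the HP1a gene with library size alone (0.17), log2(TPM + 1) (0.46), log2(TPM + 0.1) (0.46), without control 1 (0.016; range -0.093 to 0.016 with 1 library left out) and scaled to germline markers (0.050). The median of all genes was 0.25 with library size alone, 0.50 and 0.56 with the TPM settings and 0.13 with germline scaling. The causes of other moves were not tested. With 2 libraries per group, a p that misses the threshold does not show equal expression, and Hsp23 and Hsp68 rest on as few as 47 counts in a library.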
